A study of Homo sapiens with 6 samples.

Results

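The expression of 10 genes, inhibitors of cyclin-dependent kinases and genes grouped with quiescence, was followed after knockdown of SCAMP1 in a gastric cancer cell line. They were the 3 Cip/Kip inhibitors of cyclin-dependent kinases (CDKN1A, CDKN1B and CDKN1C), the 4 INK4 inhibitors (CDKN2A, CDKN2B, CDKN2C and CDKN2D), the 2 G-type cyclins (CCNG1 and CCNG2) and the pocket protein gene RBL2. The genes were chosen by name from the 19951 protein-coding genes of a table of 58735 genes, and each was found once. All 10 passed the filter on low expression, a mean of at least 0.5 FPKM (fragments mapped to a gene, scaled to its length and to the size of the library).

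NCI-N87 is an established line of human gastric carcinoma. The cells were infected for 24 h with a lentivirus that carried either the control construct (shNC, which the study's methods describe as the empty vector) or a short hairpin RNA against SCAMP1 (shScamp1), and both populations were kept under puromycin (2 μg/ml) before RNA was taken at about 80% confluence. RNA of 3 biological replicates per group was sequenced. Because a single shRNA was sequenced against an empty vector, the loss of SCAMP1 and other effects of expressing this hairpin cannot be told apart. The study's statistics exempt RNA-seq from the assays it repeated independently, and separate infections for the replicates are not stated, so the p-values measure the spread between these samples. RNA was taken from whole cultures, in which a changed share of cells in a phase of the cell cycle and a changed amount of RNA per cell cannot be told apart.

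Cyclin-dependent kinases (CDKs) drive cells from G1 into S phase when they are bound by cyclins. INK4 proteins bind CDK4 and CDK6 and keep D-type cyclins away from them, whereas Cip/Kip proteins bind complexes of cyclin and CDK and inhibit above all those that contain CDK2. With the kinases inhibited, pocket proteins stay bound to E2F factors and hold genes of DNA replication and mitosis silent, and p130, the protein of RBL2, does so in quiescent cells as a part of the DREAM complex. Unlike most cyclins, the G-type cyclins do not drive the cycle: CCNG1 is induced by DNA damage, and CCNG2 is expressed in cells that leave the cycle and is a known target of FOXO factors. Several of these inhibitors are also controlled by protein turnover, which RNA does not show.

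In the libraries labelled shScamp1, SCAMP1 was at 1.70, 1.37 and 1.99 FPKM, against 12.6, 12.1 and 11.5 in shNC (log2 fold change -2.78, SE 0.14, adjusted p = 0.000248). Libraries held 14311769 to 15988700 reads on genes. The second shScamp1 library stood apart: the chi-square of its counts against those of the other shScamp1 libraries, divided by the number of genes, was 34.5 and 44.1, whereas it lay between 1.97 and 3.10 for all other pairs within a group. Its mitochondrial share of reads was 9.21%, against 6.09% to 6.78% elsewhere, and genes rich in G and C were lower in it, with a median deviation of -0.17 (log2) in the fifth of genes with the highest GC content and of 0.09 in the lowest. The results of the 10 genes and the counts of each list are therefore given with and without this library. Epithelial keratins and CEACAM genes were present, while the gastric markers TFF1 and TFF3 were listed at 0 in all 6 libraries and CLDN18 was near 0. Of 13 listed epithelial markers, the gastric ones included, 10 were tested. The 6 that rose were CDH1, KRT8, KRT18, KRT19, CEACAM5 and CEACAM6. None fell, and 8.82% of all genes tested rose. The 13 genes summed to 5649 to 5935 FPKM in shNC and 9507 to 10520 in shScamp1, mostly from KRT8, KRT18, KRT19 and ERBB2. Markers of blood, endothelial, stromal and muscle cells summed to 1.50 to 1.52 FPKM in shNC and 1.70 to 1.97 in shScamp1, with COL1A2 and DCN at 0, and of these 11 genes the 1 tested did not pass.

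CCNG2 and CDKN2B rose in shScamp1 cells and CCNG1 fell, and the other 7 genes did not pass the test. The test was limma on log2(FPKM + 0.1) over 15556 genes, with Benjamini-Hochberg adjustment and a threshold of 0.05. The 3 changed genes of 10 stood against 14.0% of all genes tested, the 2 that rose against 8.82% and the 1 that fell against 5.17%. Past the 2-fold limit of the study's methods there was 1 of the 10, CCNG2, against 3.16% of all genes. The ranges of both groups did not overlap for 5 of the 10 genes, against 41.4% of all genes. Without the second shScamp1 library 6 of 10 passed, against 28.3% of all genes, and these added CDKN1B, CDKN2A and CDKN2D, all higher. The median log2 fold change of the 10 genes was 0.04, against -0.02 over all genes tested, and 0.18 without that library.

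Windows around a RefSeq start of each of the 3 changed genes are shown because these genes carry the result. Each covers 250 bases before and 50 bases after the start on GRCh38.p14, at chr4:77156957-77157256 (forward strand) for CCNG2, chr9:22009256-22009555 (reverse strand) for CDKN2B and chr5:163437321-163437620 (forward strand) for CCNG1. They read 5′ to 3′ on the strand of the gene, and capitals mark the CCAAT box, the GC box (GGGCGG), an E-box (CACGTG) and the core bound by FOXO factors (TGTTTAC) on either strand.
CCNG2: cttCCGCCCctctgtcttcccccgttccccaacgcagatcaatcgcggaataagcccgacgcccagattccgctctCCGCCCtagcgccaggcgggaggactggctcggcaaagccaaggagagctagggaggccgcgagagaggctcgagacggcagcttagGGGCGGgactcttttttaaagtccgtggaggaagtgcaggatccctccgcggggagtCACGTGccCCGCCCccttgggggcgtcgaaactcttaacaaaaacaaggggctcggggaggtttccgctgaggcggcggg
CDKN2B: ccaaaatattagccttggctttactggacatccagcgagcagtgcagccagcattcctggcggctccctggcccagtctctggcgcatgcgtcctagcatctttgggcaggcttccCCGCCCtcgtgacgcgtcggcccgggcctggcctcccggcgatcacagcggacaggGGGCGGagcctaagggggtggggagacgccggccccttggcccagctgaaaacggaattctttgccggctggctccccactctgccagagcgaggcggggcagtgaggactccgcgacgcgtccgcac
CCNG1: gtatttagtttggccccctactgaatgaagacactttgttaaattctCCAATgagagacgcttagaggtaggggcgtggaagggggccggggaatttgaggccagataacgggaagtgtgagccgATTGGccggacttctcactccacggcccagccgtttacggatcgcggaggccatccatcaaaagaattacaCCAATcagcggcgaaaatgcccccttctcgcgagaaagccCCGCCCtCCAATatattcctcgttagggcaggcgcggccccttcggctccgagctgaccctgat

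The window of CCNG2 held 4 GC boxes and 1 E-box, that of CDKN2B held 2 GC boxes, and the window shown for CCNG1 held 4 CCAAT boxes and 1 GC box. A second CCNG1 window, at chr5:163437345-163437644, overlaps the one shown and holds the same boxes, so that both windows count below. RefSeq windows were found for 9 of the 10 genes, 14 windows in all, and CDKN1C had no entry. A GC box stood in 11 of the 14 windows, against 45.0% of 35116 windows of the same length genome-wide. Each of the 9 genes had it in at least 1 window, a count per gene that this share per window does not match. The 14 windows had a GC content of 46.3% to 74.3% and 8 to 37 CG dinucleotides, most above the genome-wide medians of 58.7% and 14. The genome-wide shares were not matched for GC content. CCAAT stood in 6 of 14 (34.6% genome-wide), CACGTG in 3 of 14, in CCNG2 and CDKN2C (7.26%), and TGTTTAC in 0 of 14 (3.42%). These are matches of letters in a window and say nothing of binding.

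In shNC cells the 10 genes covered a wide range of levels (per length, in FPKM). CDKN2A, whose mean over all libraries stood at the 96.3rd percentile of the genes tested, was the highest, followed by CCNG1, CDKN1B, CDKN2B, RBL2, CDKN1A, CDKN2D, CDKN2C, CCNG2 and CDKN1C. The libraries of neighbours in this order did not overlap, except those of RBL2 and CDKN1A and those of CDKN1A and CDKN2D. In shScamp1 cells CDKN1B lay above CCNG1 in every library, whereas CDKN1B and CDKN2B overlapped, as did CDKN2C and CCNG2.

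**Figure D1:**
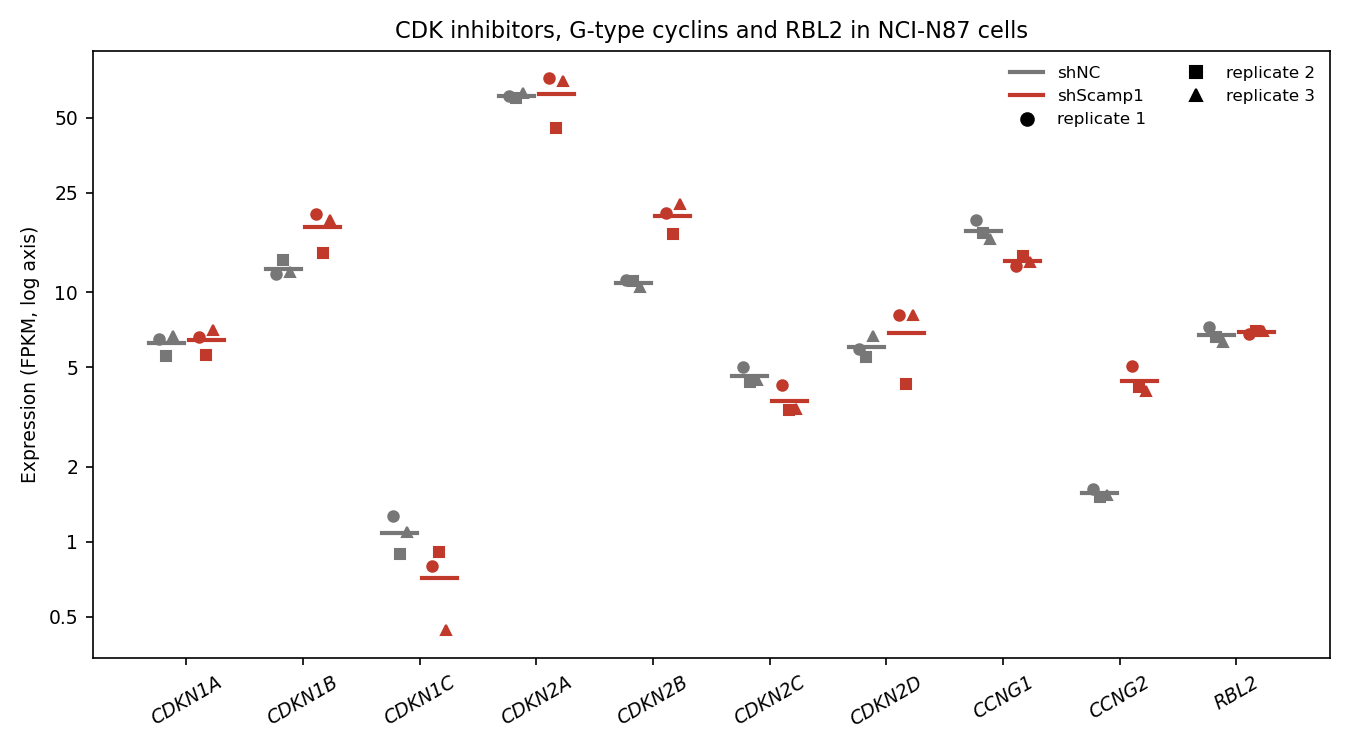
Expression of the 10 genes in each library (FPKM, log axis), with shNC in grey and shScamp1 in red, a symbol per replicate and a bar at each group mean. CDKN2A is the highest (61.4 FPKM in shNC), and the 2 groups are farthest apart at CCNG2 (1.56 FPKM in shNC, 4.42 in shScamp1).

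CDKN1B encodes p27, the inhibitor that holds CDK2 in check in resting cells, and it supplied 63.0% of the summed Cip/Kip level in shNC cells. CDKN1B (ENSG00000111276, chromosome 12 from 12715058 to 12722371, forward strand) was at 11.8, 13.5 and 12.0 FPKM in shNC and at 20.6, 14.4 and 19.5 FPKM in shScamp1. All shScamp1 libraries were above all shNC libraries, but the second was close to the highest control. The mean was 12.4 ± 0.932 (SD, n = 3) against 18.2 ± 3.34 FPKM. In limma the log2 fold change of 0.53 (SE 0.15, 95% confidence interval 0.17 to 0.88) did not pass (adjusted p = 0.0638). Without the second shScamp1 library the log2 fold change was 0.69 and passed (adjusted p = 0.00190). The exact permutation p was 0.1, the smallest this design allows, and any 2 groups of 3 that do not overlap give it.

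CDKN1A encodes p21, an inhibitor induced after DNA damage. CDKN1A (ENSG00000124762, chromosome 6 from 36676460 to 36687339, forward strand) was at 6.49, 5.55 and 6.66 FPKM in shNC and at 6.64, 5.63 and 7.08 FPKM in shScamp1. The groups overlapped almost fully, and the fitted log2 difference was 0.05 (95% confidence interval -0.24 to 0.33, adjusted p = 0.819), and 0.14 without the second shScamp1 library (adjusted p = 0.313). Within each library the ratio of CDKN1B to CDKN1A was 1.82, 2.44 and 1.80 in shNC and 3.10, 2.55 and 2.76 in shScamp1, so that all shScamp1 libraries were higher (exact permutation p = 0.1).

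CDKN1C encodes p57, the imprinted member of the family, and was the lowest of the 10 genes. CDKN1C (ENSG00000129757, chromosome 11 from 2883213 to 2885773, reverse strand) was at 1.27, 0.896 and 1.10 FPKM in shNC and at 0.801, 0.914 and 0.441 FPKM in shScamp1. These values rest on 16 to 50 reads per library, and the groups overlapped. The log2 fold change of -0.58 (SE 0.29, adjusted p = 0.236) had a 95% confidence interval from -1.28 to 0.13, so that a fall of more than 2-fold and a small rise were both within reach of the error. It was -0.75 without the second shScamp1 library (adjusted p = 0.117). Summed over the 3 Cip/Kip genes, expression was 19.6, 20.0 and 19.8 FPKM in shNC and 28.1, 20.9 and 27.0 FPKM in shScamp1. The groups did not overlap (exact permutation p = 0.1), and the second shScamp1 library lay nearest to the controls.

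CDKN2B encodes p15, an INK4 inhibitor known as a target of TGF-beta signalling, and it was the INK4 gene that changed. CDKN2B (ENSG00000147883, chromosome 9 from 22002903 to 22009363, reverse strand) was at 11.2, 11.0 and 10.5 FPKM in shNC and at 20.7, 17.2 and 22.6 FPKM in shScamp1. Every shScamp1 library was far above the controls, which differed little among themselves. The mean rose from 10.9 ± 0.385 to 20.2 ± 2.74 FPKM (SD, n = 3 each), 1.84-fold. The fitted log2 fold change was 0.87 (SE 0.11, 95% confidence interval 0.60 to 1.13, adjusted p = 0.00511). Without the second shScamp1 library it was 0.98 (adjusted p = 0.000285). The antisense gene CDKN2B-AS1 overlaps all of CDKN2B and 524 bases of CDKN2A, and it was at 0.346, 0.307 and 0.177 FPKM in shNC and 0.375, 0.401 and 0.605 FPKM in shScamp1. It held 22 to 71 reads per library, against 658 to 1340 for CDKN2B. Both overlaps are of the spans from gene start to gene end, introns included, and overlap of exons was not examined. Whether reads were counted by strand is not given in the sources used here. Without strand, only reads from a stretch that exons of both genes share could not be told apart.

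CDKN2A, the neighbour of CDKN2B at the same locus, encodes p16 and, from another first exon, the unrelated protein ARF. A value per gene cannot tell these transcripts apart. CDKN2A (ENSG00000147889, chromosome 9 from 21967753 to 21995301, reverse strand) was at 61.2, 60.0 and 63.0 FPKM in shNC and at 71.9, 45.6 and 70.1 FPKM in shScamp1. The shScamp1 libraries lay on both sides of the controls, the second below and the others above. Over all 6 libraries the log2 fold change was -0.00 (SE 0.18, 95% confidence interval -0.43 to 0.43, adjusted p = 0.993), and without the second shScamp1 library it was 0.21 (adjusted p = 0.0102). The gene stood at the 89.5th percentile of GC content. It deviated in that library by -0.64 (log2, from the other shScamp1 libraries), against a median of -0.17 in the fifth of highest GC. CDKN2D, at the 89.0th percentile, deviated by -0.91, and CDKN2C and CDKN1A, at the 80.1st and 79.9th, by -0.17 and -0.28. CDKN1C, at the 94.3rd percentile but with few reads, deviated by 0.54, and CDKN1B, at the 46.9th, by -0.48. At percentiles below that of CDKN1B, CDKN2B deviated by -0.33, CCNG2 by -0.11, RBL2 by 0.02 and CCNG1 by 0.10. Whether GC content bears on these values was not tested. With each library's trend over GC content removed, a setting chosen after the data were seen, the log2 fold change of CDKN2A was 0.04 (adjusted p = 0.867). Within a library the ratio of CDKN2B to CDKN2A was 0.184, 0.184 and 0.167 in shNC and 0.288, 0.377 and 0.322 in shScamp1, higher in all 3 shScamp1 libraries (exact permutation p = 0.1). As a check of shared sequence, 31 of the 4550 stretches of 50 bases in CDKN2A transcripts (0.681%) also occur in CDKN2B, so that few reads could fit both.

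CDKN2C and CDKN2D, which encode the INK4 proteins p18 and p19, lie on other chromosomes. CDKN2C (ENSG00000123080, chromosome 1 from 50960745 to 50974633, forward strand) was at 5.04, 4.38 and 4.45 FPKM in shNC and at 4.23, 3.37 and 3.40 FPKM in shScamp1. All shScamp1 libraries were below all controls, yet the log2 fold change of -0.33 (SE 0.12, 95% confidence interval -0.61 to -0.05) did not pass (adjusted p = 0.113), nor did the value of -0.28 without the second shScamp1 library (adjusted p = 0.137). CDKN2D (ENSG00000129355, chromosome 19 from 10566462 to 10569059, reverse strand) was at 5.92, 5.51 and 6.68 FPKM in shNC and at 8.11, 4.28 and 8.14 FPKM in shScamp1. As for CDKN2A, the second shScamp1 library was below the controls and the others above. CDKN2D stood at the 89.0th percentile of GC content, and whether this bears on its values was not tested. Its log2 fold change was 0.12 (SE 0.26, adjusted p = 0.775) over 6 libraries and 0.43 (adjusted p = 0.0175) without the second shScamp1 library. With the GC trend removed it was 0.17 (adjusted p = 0.634). The 4 INK4 genes summed to 83.4, 81.0 and 84.6 FPKM in shNC, of which CDKN2A made up 74.0%, and to 105, 70.4 and 104 FPKM in shScamp1. The sums overlapped between the groups (exact permutation p = 0.4).

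**Figure D2:**
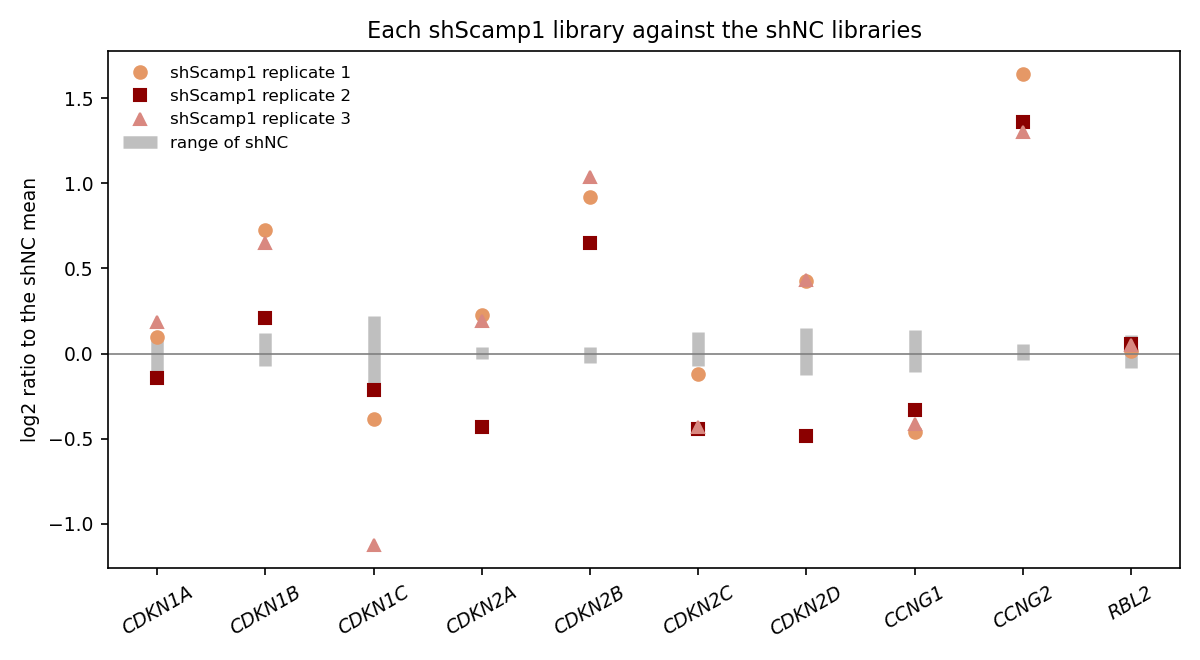
Log2 ratio of each shScamp1 library to the shNC mean for the 10 genes, with the range of the shNC libraries as grey bars. All 3 shScamp1 libraries lie above the bars for CDKN1B, CDKN2B and CCNG2 and below them for CDKN2C and CCNG1, and replicate 2 lies below the others for CDKN2A and CDKN2D.

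The G-type cyclins moved in opposite directions. CCNG2 (ENSG00000138764, chromosome 4 from 77157151 to 77433388, forward strand) was at 1.63, 1.52 and 1.54 FPKM in shNC and at 5.09, 4.17 and 4.01 FPKM in shScamp1. The lowest shScamp1 library was thus well above the highest control. The mean rose 2.83-fold, from 1.56 ± 0.0584 to 4.42 ± 0.581 FPKM (SD, n = 3 in both groups). In limma this was a log2 fold change of 1.44 (SE 0.11, 95% confidence interval 1.16 to 1.71, adjusted p = 0.00105), on 178 to 555 reads per library. The value was 1.47 without the second shScamp1 library (adjusted p = 0.000891).

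CCNG1, whose protein is known to bind protein phosphatase 2A, was the more abundant G-type cyclin. CCNG1 (ENSG00000113328, chromosome 5 from 163437569 to 163446151, forward strand) was at 19.4, 17.2 and 16.4 FPKM in shNC and at 12.8, 13.9 and 13.2 FPKM in shScamp1. The groups did not overlap, and the second shScamp1 library was the nearest to the controls. The mean decreased by 24.6%, from 17.7 ± 1.58 to 13.3 ± 0.588 FPKM (SD, n = 3 in both groups). The fitted log2 fold change was -0.40 (SE 0.08, 95% confidence interval -0.61 to -0.20, adjusted p = 0.0287). Without the second shScamp1 library it was -0.44 (adjusted p = 0.0118). This call is the least firm of the 3, because the adjusted p rose to between 0.0618 and 0.102 when any library other than the second of shScamp1 was left out (the log2 fold change stayed between -0.46 and -0.33). CCNG1 made up 91.9% of the summed G-type cyclin level in shNC, and the sum was 21.0, 18.7 and 17.9 FPKM there and 17.9, 18.1 and 17.2 FPKM in shScamp1 (exact permutation p = 0.2). The ratio of CCNG2 to CCNG1 within a library was 0.0839, 0.0883 and 0.0943 in shNC and 0.398, 0.299 and 0.304 in shScamp1.

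RBL2 (ENSG00000103479, chromosome 16 from 53433977 to 53491649, forward strand) was at 7.25, 6.62 and 6.32 FPKM in shNC and at 6.79, 7.00 and 6.97 FPKM in shScamp1. The shScamp1 libraries fell within the range of the controls. The log2 difference was 0.04 (SE 0.08, adjusted p = 0.750) and its 95% confidence interval ran from -0.14 to 0.22, the narrowest of the 10 genes. Without the second shScamp1 library the difference was 0.03 (adjusted p = 0.771). The end of RBL2 overlaps AKTIP by 610 bases, and AKTIP was at 4.93, 4.86 and 4.97 FPKM in shNC and at 6.86, 4.18 and 6.87 FPKM in shScamp1.

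**Figure D3:**
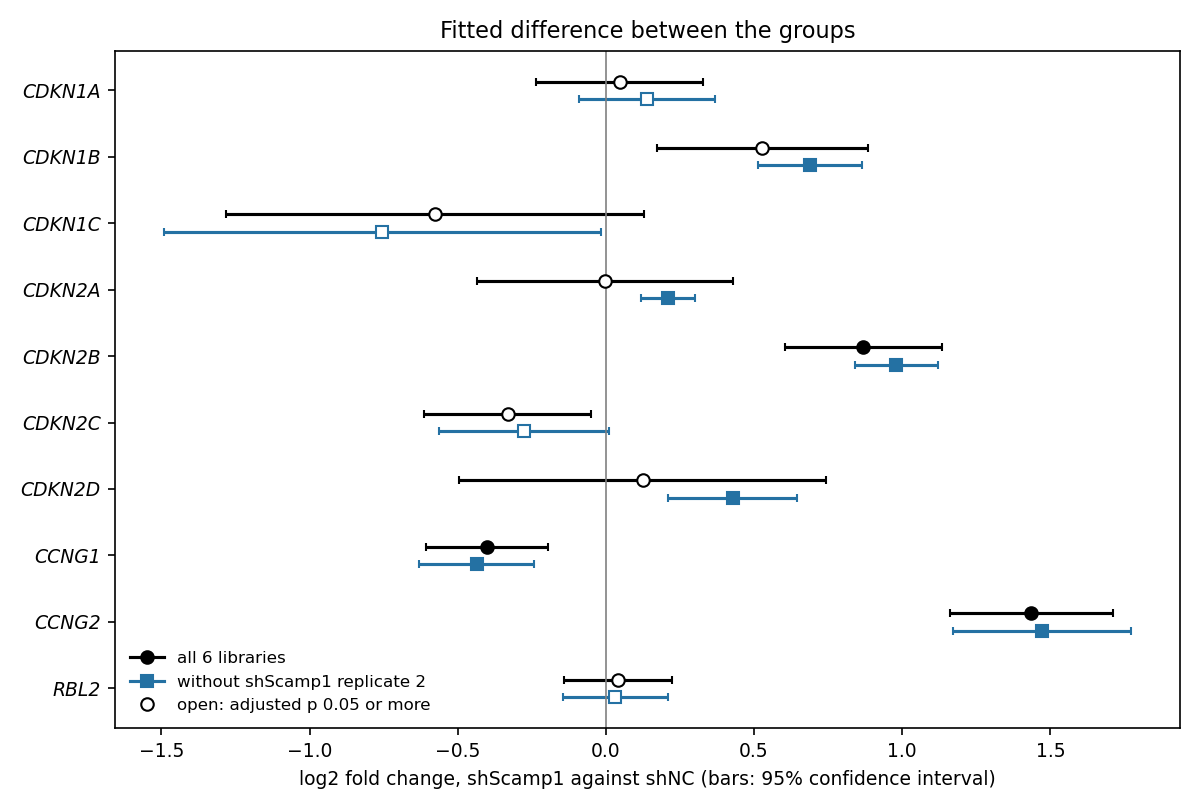
Fitted log2 fold change of each gene, shScamp1 against shNC, with its 95% confidence interval, from all 6 libraries (black circles) and without shScamp1 replicate 2 (blue squares). Filled symbols have an adjusted p under 0.05, and the black ones are CDKN2B (0.87), CCNG1 (-0.40) and CCNG2 (1.44).

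The partners and regulators of these genes were described from lists of known members, each by the number that passed over all genes tested and by its median log2 fold change, beside -0.02 for all genes. Of all genes 14.0% passed (8.82% higher, 5.17% lower), 28.3% without the second shScamp1 library. The 21 list genes that passed all did so in the same direction without that library. Each is named with the number of the 17 alternative settings under which it passed. Among 11 tested cyclins and CDKs of G1 and S phase (of 12 listed, median 0.01), CCND3 rose and CDK4 fell, 2 of 11 beside the 14.0%. CCND3, a D-type cyclin, was at 10.3, 11.8 and 11.1 FPKM in shNC and 14.5, 12.9 and 14.3 FPKM in shScamp1 (log2 fold change 0.33, adjusted p = 0.0479). CDK4, the kinase that INK4 proteins bind, was at 30.9, 30.7 and 32.3 FPKM in shNC and 23.8, 19.9 and 24.2 FPKM in shScamp1 (log2 fold change -0.47, adjusted p = 0.0207). The libraries of the 2 groups did not overlap for either gene. CCND3 passed under 8 of the 17 settings and CDK4 under 13, and the list had 6 changed genes without the second shScamp1 library (3 rose, 3 fell) but 0 to 1 without any other library.

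Downstream of the inhibitors, 1 of 17 pocket protein, E2F and DREAM subunit genes changed (median -0.16), a smaller share than the 14.0% of all genes. It was MYBL2, which joins the DREAM core in cycling cells, and it fell (log2 fold change -0.35, adjusted p = 0.0322), as did 5.17% of all genes. That call held under 7 of the 17 settings and was lost without any library other than the second of shScamp1, or with the GC trend removed (adjusted p = 0.0977). The list had 4 genes that fell without the second shScamp1 library. Of 28 E2F and DREAM target genes (median -0.19), 4 fell, none rose and 24 did not pass. Of all genes 5.17% fell and 8.82% rose. The 4 were MCM3 (-0.47, adjusted p = 0.00773), MCM6 (-0.39, adjusted p = 0.00944) and MCM7 (-0.37, adjusted p = 0.0342), subunits of the replicative helicase, and TK1, thymidine kinase (-0.27, adjusted p = 0.0473), the last named after its value was seen. MCM3 passed under 16 of the 17 settings, MCM6 under 13, and MCM7 and TK1 under 9 each. The number of changed genes rested on the libraries used, with 13 lower and 1 higher without the second of shScamp1 but 0 to 3 in all without any other. Without the second of shScamp1, 2078 of all 15458 genes tested were lower and 2296 higher.

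Of 15 genes for ubiquitin ligase subunits linked to the turnover of CDK inhibitors, cyclin E or p130 (median -0.13), 2 rose and 2 fell. Of all genes 14.0% passed in either direction. SKP2, which recognises p27 for degradation, was at 6.69, 6.84 and 7.37 FPKM in shNC and at 4.60, 4.21 and 4.51 FPKM in shScamp1 (log2 fold change -0.64, SE 0.08, adjusted p = 0.00397). UBAC1, a subunit of the ligase that degrades p27 in G1, fell as well (-0.28, adjusted p = 0.0361), whereas CUL4B (0.52, adjusted p = 0.0311) and FZR1 (0.33, adjusted p = 0.0345), an activator of the anaphase-promoting complex, rose. SKP2 passed under all 17 settings, CUL4B under 10, FZR1 under 9 and UBAC1 under 7, and UBAC1 did not pass with the GC trend removed (adjusted p = 0.0972). The list had 7 changed genes without the second shScamp1 library (2 rose, 5 fell) and 1 to 3 without any other.

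Of 12 known regulators of the INK4 locus (median -0.15), 3 rose and 1 fell, beside 8.82% and 5.17% of all genes. ID1, which antagonises activation of the CDKN2A promoter by ETS factors, was at 109, 105 and 110 FPKM in shNC and at 66.4, 37.2 and 61.9 FPKM in shScamp1 (log2 fold change -1.01, SE 0.22, adjusted p = 0.0299). ETS1 (0.50, adjusted p = 0.0303) and ETS2 (0.27, adjusted p = 0.0336) rose, as did BMI1 (0.43, adjusted p = 0.0115), a Polycomb repressor of the locus. None of these held under all 17 settings (BMI1 13, ID1 12, ETS1 11, ETS2 8), and the list had 0 to 3 changed genes when a library other than the second of shScamp1 was left out. Without that second library 3 rose and 2 fell, and ID1 was at -0.75.

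Of TGF-beta mediators, FOXO factors and other factors that act on promoters of CDK inhibitors, 14 of 15 were tested (median 0.12). The gene not tested was SMAD4, which was near 0, at 0.104 to 0.192 FPKM in shNC and 0.063 to 0.099 FPKM in shScamp1. KLF6 (0.90, adjusted p = 0.000997) and SMAD3 (0.55, adjusted p = 0.00531) rose and TGFBR1, a TGF-beta receptor, fell (-0.37, adjusted p = 0.0440). Of all genes 8.82% rose and 5.17% fell. FOXO1, FOXO3 and FOXO4 did not pass (0.14, 0.52 and 0.19), FOXO3 narrowly (adjusted p = 0.0524). FOXO3 passed under some alternatives, among them without the second shScamp1 library (0.39, adjusted p = 0.0169) and with the GC trend removed (0.54, adjusted p = 0.0473). KLF6 and SMAD3 passed under all 17 settings and TGFBR1 under 9, and 3 rose and 2 fell without the second shScamp1 library, against 2 to 3 changed genes without any other. Of 14 genes associated with senescence only 5 were high enough to be tested (median 0.01). Of these IGFBP3 (2.40, adjusted p = 0.000203) and CXCL8 (1.49, adjusted p = 0.00111) rose, and LMNB1, the gene of lamin B1, fell (-0.57, adjusted p = 0.0206), beside the same shares of all genes. IGFBP3 and CXCL8 passed under all 17 settings and LMNB1 under 13, and 2 rose and 2 fell without the second shScamp1 library, against 2 to 3 changed genes without any other.

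**Figure D4:**
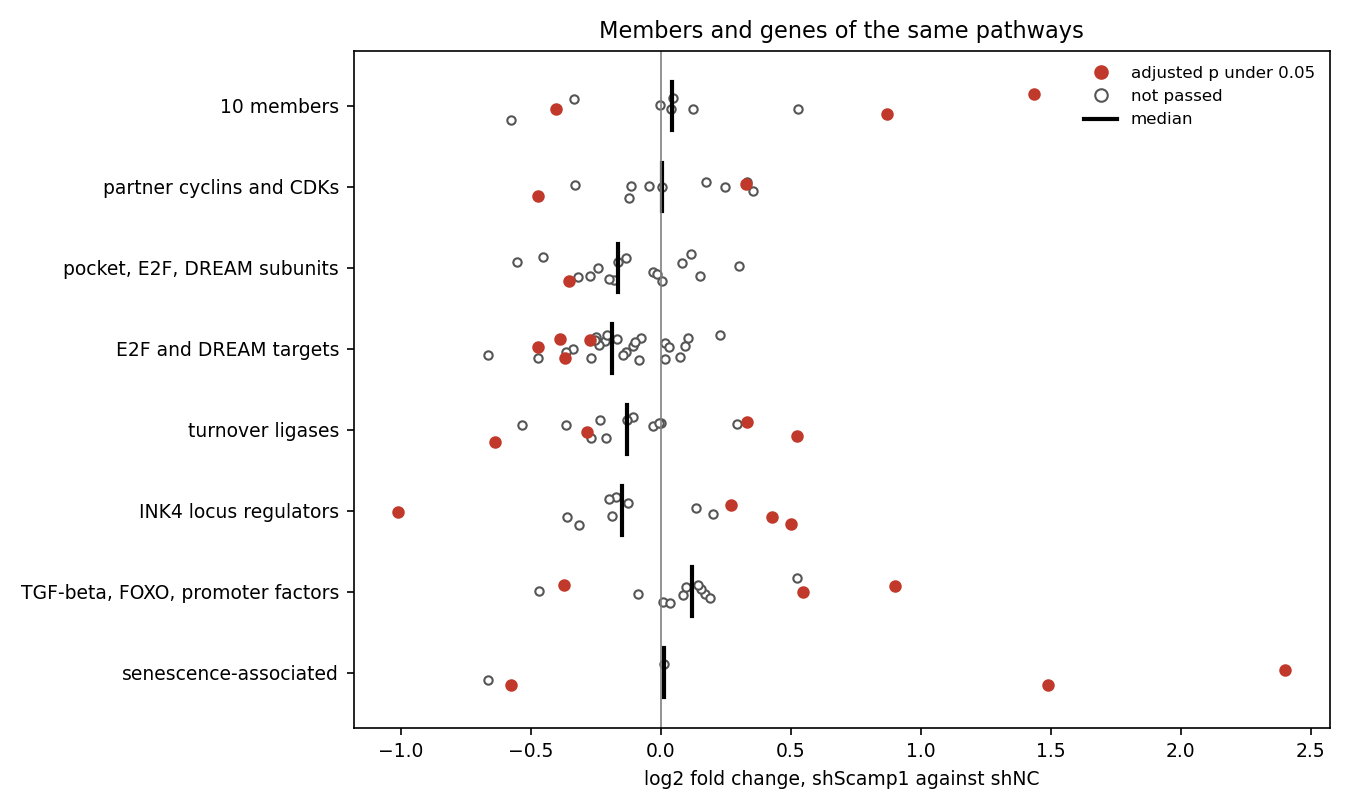
Log2 fold change (x axis) of the 10 genes and of the tested genes of each pathway list (rows), with red points for an adjusted p under 0.05 and a black line at the median of each row. Medians lie between -0.19 (E2F and DREAM targets) and 0.12 (TGF-beta, FOXO and promoter factors).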

How the data were processed

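RNA of NCI-N87 cells was sequenced in 6 libraries (3 shNC, 3 shScamp1), grouped by their labels. The authors deposited FPKM per gene, with gene length, coordinates and biotype. The coordinates matched GENCODE 29 (GRCh38) for all 58735 genes. The submitters' processing notes name hg38, HISAT2 2.0.5, featureCounts 1.5.0-p3 and DESeq2 1.20.0, with no role or order. Multiplied by gene length, the FPKM values of a library were whole multiples of 1 unit (tolerance 0.05), which gave reads per gene, and these units showed that the deposited FPKM already held a scaling between libraries (factors of 0.914 to 1.11). Totals were 14311769 to 15988700 reads, so that genes with few reads are measured less precisely. Precision also rested on the second shScamp1 library: CDKN2A, with 2701 to 4549 reads, had an SE of 0.18, and of 0.04 without that library.

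Differences were tested in R 4.3.3 with limma 3.58.1 (lmFit, eBayes with trend) on log2(FPKM + 0.1), two-sided, for the 15556 genes that averaged 0.5 FPKM or more, with Benjamini-Hochberg adjustment. Fold changes on this scale understate changes of low genes. Single values, sums and ratios were compared by exact two-sided permutation tests, for which 0.1 is the smallest p with 3 against 3. No set test was run. Scripts ran in Python 3.11.15 with numpy 2.4.6, pandas 2.3.3, scipy 1.17.1 and matplotlib 3.10.9, and the fit was tested on simulated data. Promoter windows are from RefSeq (GRCh38.p14).

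The 10 genes and the lists were chosen with earlier results of these data known. Genes named are the 10, SCAMP1, cell type markers, genes overlapping the 10, and up to 3 changed genes per list and direction by smallest p (mean of at least 1 FPKM). TK1, SMAD4 and the FOXO genes were named in addition, after their values were seen. Alternatives covered the pseudocount, filter, scaling, trend, biotype, voom on the recovered reads, replicate number as a block and each library left out. Removal of the GC trend was added after the data were seen. Results for some genes are not reported here.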

Additional observations from a re-analysis of the deposited data

How the results depend on the processing

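Of 17 alternatives to the main settings, all kept CDKN2B (log2 fold change 0.78 to 0.98) and CCNG2 (1.08 to 1.50) higher in shScamp1 and past the threshold. CCNG1 was lower under all 17 and passed under 10. It did not pass without the mean-variance trend (adjusted p = 0.0511), with the replicate number as a block (0.0900) or without any 1 of 5 libraries (0.0618 to 0.102). CDKN1B passed under 3, namely with protein-coding genes only (adjusted p = 0.0370), with voom on recovered reads (0.0348) and without shScamp1 replicate 2 (0.00190). CDKN2C passed only without shScamp1 replicate 1 (-0.44, adjusted p = 0.0486). CDKN2A ranged from -0.12 to 0.21 with a library left out, and passed, in the opposite direction to the main value, at 0.21 without shScamp1 replicate 2. The cause was not tested. With a library left out, 2 to 6 of the 10 genes passed (6 without shScamp1 replicate 2), and 817 to 4374 of all genes did. The pathway lists held 21 changed genes, and 5 to 44 with a library left out, 10 with no filter on low values, 12 with no mean-variance trend and 7 with the replicate block. That block called 958 genes in all, and 2 of the 10 (CDKN2B and CCNG2). Libraries with the same number did not deviate together (correlations of -0.035, 0.032 and 0.067), so the numbers were not taken to pair the samples. Removal of the GC trend called CDKN2B, CCNG1 and CCNG2, as did the main settings. Depth limits CDKN1C most (16 to 50 reads per library).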
